A study of Mus musculus with 34 samples.

Results

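In all, 7 clock output genes were examined for binding of the corepressor HDAC3, the homeobox protein PROX1 and the nuclear receptor HNF4α in mouse liver. They are *Dbp*, *Tef* and *Hlf*, which encode PAR bZIP activators, *Nfil3*, *Bhlhe40* and *Bhlhe41*, which encode repressors, and *Rora*, which encodes a nuclear receptor. All 7 were found by symbol among 22367 protein-coding genes. HDAC3 and PROX1 peaks were taken when centred in a window that began 50 kb before the transcription start site (TSS) and ended 2 kb beyond the gene. The 7 windows held 67 of the 28631 peaks of either factor and 51 of the 24253 HNF4α peaks.

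The HDAC3 and PROX1 peaks came from ChIP-seq of control livers, with 3 libraries per factor, and the HNF4α peaks from 2 libraries of livers labelled HNF4A floxed, in which the gene carries loxP sites. The labels name no virus, whereas the study describes floxed control livers infected with AAV8 TBG *Egfp*, which expresses a fluorescent protein in hepatocytes. All mice were C57B/6 males aged 10 weeks, and livers were collected at ZT10, which is 10 h after lights on. Livers were taken whole, so that hepatocytes and other liver cells contributed to each library, and no expression was analysed here by which the tissue could be checked. The deposited lists were made from pooled replicates, and the HDAC3 and PROX1 lists hold positions only. The spread between livers and the depth behind a peak are therefore unknown, no test between conditions was possible, and intervals below are 95% Wilson intervals over peaks, which cover counting error and treat neighbouring peaks as independent.

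The circadian clock is a transcriptional loop in which CLOCK and BMAL1 bind E-boxes and drive genes that act back on it. DBP, TEF and HLF carry its output by activating genes with D-boxes, and NFIL3, also called E4BP4, represses through the same element. BHLHE40 and BHLHE41, also called DEC1 and DEC2, bind E-boxes and repress, and RORα activates through RORE elements at which the REV-ERB receptors recruit HDAC3 with NCoR. In liver these output factors are known for daily rhythms of detoxification, bile acid and lipid genes.

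HDAC3 and PROX1 shared most of their sites around these genes. Of the 67 peaks, 53 had identical coordinates in both lists and are called co-bound, 13 were PROX1-only and 1 was HDAC3-only. The study used a higher signal limit for PROX1 peaks than for HDAC3 peaks. For an overlap it required a lower signal of the other factor. A co-bound peak may therefore lie below the peak limit of 1 of the factors. The co-bound share was 79.1% (95% CI 67.9 to 87.1), an interval that includes the 70% of all HDAC3 and PROX1 peaks. At least 1 co-bound peak lay in the windows of 6 of the 7 genes, against 38.4% of all protein-coding genes. An HDAC3-only peak lay in 1 window, that of *Tef*, against 7.4% of all genes, and a PROX1-only peak in 5 windows, against 25.2%. The windows of all 7 genes held an HNF4α peak, which was the case for 49.7% of all genes. Windows differ in length, from 57.1 kb for *Dbp* to 786 kb for *Rora*, and a longer window holds more peaks, so densities are given beside the counts.

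**Figure D1:**
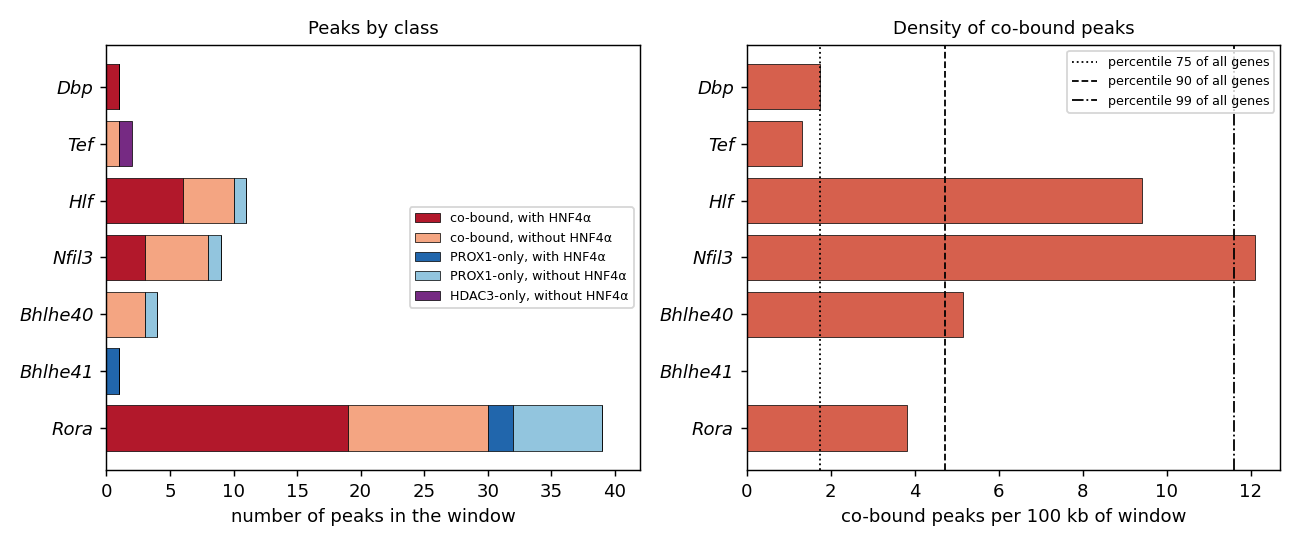
Number of HDAC3 and PROX1 peaks in the window of each gene by class and HNF4α cover (left, stacked bars) and number of co-bound peaks per 100 kb of window (right, bars), with vertical lines at percentiles of the density over all 22367 protein-coding genes. *Rora* holds the most peaks, 30 of them co-bound, *Nfil3* has the highest density at 12.1 per 100 kb, and *Bhlhe41* has 0 co-bound peaks.

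The density of co-bound peaks ordered the genes differently from their counts. *Nfil3* had 12.1 co-bound peaks per 100 kb and *Hlf* 9.4, and they stood at percentiles 99.2 and 97.8 of all genes. *Bhlhe40* followed with 5.15 and *Rora* with 3.81, at percentiles 91.2 and 87.6. *Dbp* with 1.75 and *Tef* with 1.31 each rest on 1 co-bound peak, and *Bhlhe41* had 0. The median over all genes was 0, the upper quartile 1.75 and percentile 99 was 11.6. Over the summed windows the 7 genes held 4.38 co-bound peaks per 100 kb, against 0.755 over the whole genome. The whole-genome value also takes in stretches outside any gene window, so it is not a like measure. In number of co-bound peaks, 3 genes of the genome exceeded *Rora* with its 30, whereas 212 exceeded *Hlf* with 10 and 443 exceeded *Nfil3* with 8. The rank of *Rora* by count goes with its long window, and by density it was the median of the 7 genes.

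HNF4α was counted as present where an HNF4α peak covered at least 50% of the 200 bp of a peak. The study describes its HNF4α peaks as filtered on the HNF4α knockout, and whether the list used here carries that filter cannot be told from it, so a site without a listed HNF4α peak may have been removed by the filter or by the signal limits. It was present at 29 of the 53 co-bound peaks, or 54.7% (95% CI 41.5 to 67.3), and an interval of this width includes the 61.3% of all co-bound peaks. Among the other 6 genes it was present at 10 of 23, or 43.5% (25.6 to 63.2), and in *Rora* at 19 of 30, or 63.3% (45.5 to 78.1). These intervals overlap, and the share of the 6 genes did not resolve from that of all co-bound peaks at this number of peaks. Such triply bound peaks, with HDAC3, PROX1 and HNF4α, were present at *Dbp*, *Hlf*, *Nfil3* and *Rora*, which is 4 of 7 genes against 31.1% of all genes. *Tef*, *Bhlhe40* and *Bhlhe41* had 0 of them. Of the 13 PROX1-only peaks, 3 had HNF4α (23.1%, 8.18 to 50.3), against 36.7% of all PROX1-only peaks. Cover values near the limit were 51% and 53% at *Rora* +246 and +678 kb and 55.5% at *Nfil3* -1.21 kb, which count as triply bound, and 44.5% at *Hlf* +47.9 kb and 37% at *Rora* +528 kb, which do not.

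**Figure D2:**
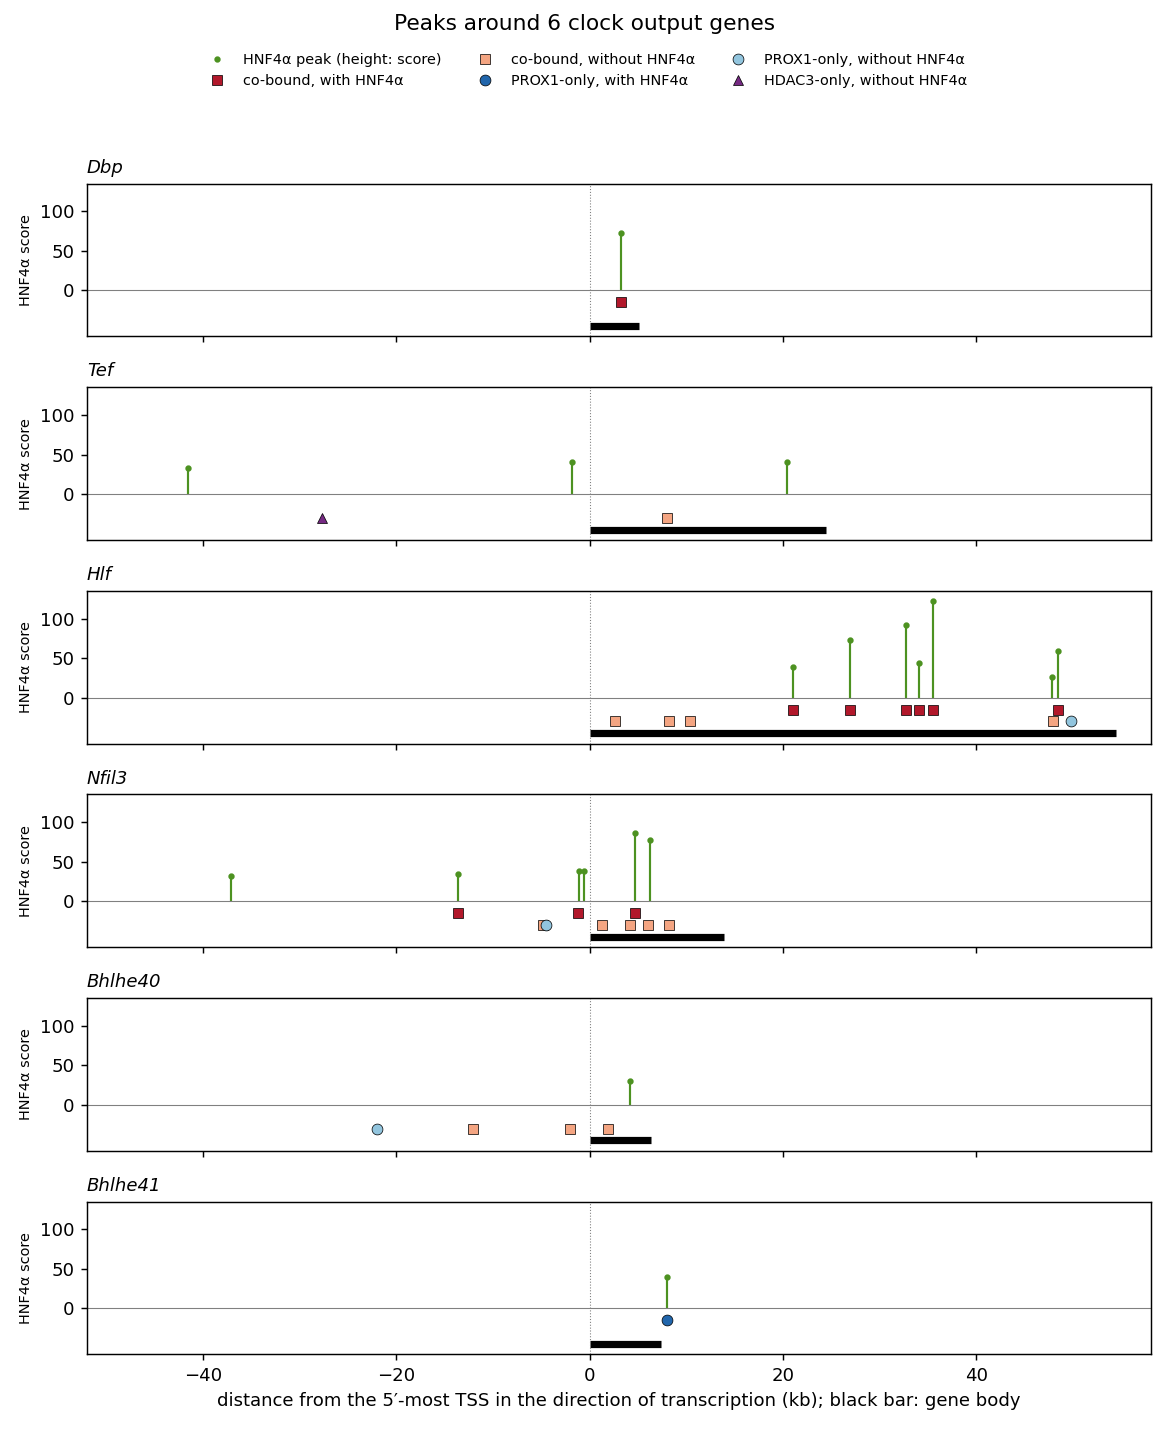
Peaks around the 6 shorter genes, by distance in kb from the 5′-most TSS in the direction of transcription (horizontal axis). Green lines give HNF4α peaks with the HOMER score as height (vertical axis), squares, circles and the triangle under them give HDAC3 and PROX1 peaks by class with HNF4α cover in the upper row and without it in the lower row, and black bars give gene bodies. *Hlf* has its 6 triply bound peaks between +21.1 and +48.5 kb and its first 3 co-bound peaks without HNF4α, and the 3 HNF4α peaks of *Tef* coincide with no HDAC3 or PROX1 peak.

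*Dbp*, a PAR bZIP gene known for its strong daily rhythm, is on chromosome 7 (mm9, forward strand, 52960458 to 52965525). Its window held 1 HDAC3 and PROX1 peak, which was triply bound, and no other HNF4α peak. The peak, at chr7:52963632-52963831, is centred 3.27 kb past the 5′-most TSS, and all of its 200 bp are coding exon. HNF4α covered 67.5% of it with a score of 73, at percentile 84.6 of the HNF4α list. The window is shared with the TSSs of 4 other protein-coding genes, but *Dbp* is the gene with the nearest TSS. The sequence, from the genome assembly on the forward strand as are all below, is shown since it is the only peak of this gene, with its match to the HNF4 sequence CAAAGGTCA, on the reverse strand, in capitals.
Dbp +3.27 kb: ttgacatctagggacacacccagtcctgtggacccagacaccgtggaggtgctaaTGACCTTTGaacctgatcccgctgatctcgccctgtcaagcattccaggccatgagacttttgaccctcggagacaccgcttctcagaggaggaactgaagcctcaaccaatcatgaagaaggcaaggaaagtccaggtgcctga

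*Tef* encodes a second PAR bZIP activator and lies on the forward strand of chromosome 15 from 81632851 to 81657291. It was the only one of the 7 genes with an HDAC3-only peak in its window, and its single co-bound peak lacked HNF4α. The HDAC3-only peak, at chr15:81605023-81605222, is centred at -27.7 kb from the 5′-most TSS of *Tef* and inside an intron of the neighbour *Zc3h7b*. Which gene is nearest depends on the TSSs counted. The nearest annotated TSS of *Zc3h7b* is 6.69 kb away, but with 1 TSS per gene, the outermost, *Tef* at 27.7 kb is nearer than *Zc3h7b* at 29.8 kb. This peak holds a RORE match, TAGGTCA on the reverse strand, and had no base covered by HNF4α. The co-bound peak of *Tef*, at chr15:81640748-81640947, is centred 8 kb past the 5′-most TSS and at -0.629 kb from another annotated TSS of *Tef*, so it counts as a promoter peak, defined as one centred within 1 kb of a TSS. It holds no match to any of the motifs searched. Both sequences are shown because they are the whole of the HDAC3 binding listed for *Tef*, with the RORE match in capitals.
Tef -27.7 kb, HDAC3-only: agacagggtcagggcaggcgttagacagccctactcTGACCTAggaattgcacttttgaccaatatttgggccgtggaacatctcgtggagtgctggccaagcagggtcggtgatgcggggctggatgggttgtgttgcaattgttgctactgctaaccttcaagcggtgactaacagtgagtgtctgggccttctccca
Tef +8 kb, co-bound: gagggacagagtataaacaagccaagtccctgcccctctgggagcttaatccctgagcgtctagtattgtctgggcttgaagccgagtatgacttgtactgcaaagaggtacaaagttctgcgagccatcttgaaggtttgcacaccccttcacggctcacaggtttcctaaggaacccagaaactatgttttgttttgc

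HNF4α bound the *Tef* window apart from HDAC3 and PROX1. Its 3 peaks lay at -41.5, -1.83 and +20.4 kb, with scores of 32.5, 40.5 and 41, and none coincided with a peak of either factor. *Tef* was the one gene of the 7 with several HNF4α peaks and 0 of them at a co-bound or PROX1-only peak. The scores lie at percentiles 30.2, 47 and 47.8 of the list, below its median of 41.9.

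*Hlf*, the remaining PAR bZIP activator, lies on the reverse strand of chromosome 11 from 90197849 to 90252231, and its binding was entirely inside the gene. All 10 of its co-bound peaks and its 1 PROX1-only peak are centred between +2.63 and +49.8 kb from the 5′-most TSS, and 0 lie upstream. The 10 co-bound peaks span 46 kb with a median gap of 5.59 kb, the shortest being 0.555 kb. HNF4α was present at 6 of them. The 3 nearest the 5′ end, at +2.63, +8.23 and +10.4 kb, had no base covered by HNF4α, and the first 2 of these are promoter peaks, centred at -0.076 and -0.754 kb from alternative TSSs of *Hlf*, which has 6 annotated TSSs. The next 5, at +21.1, +26.9, +32.7, +34.1 and +35.5 kb, were triply bound with scores of 38.6, 72.6, 92.4, 44.3 and 121.6. The last of these scores is the highest in the 7 windows and stands at percentile 99.4 of the HNF4α list. The remaining pair, at +47.9 and +48.5 kb, had HNF4α scores of 26.4 and 58.9, of which the first covered 44.5% of its peak and does not count.

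The sequences below show the promoter peaks of *Hlf* and the peak of highest HNF4α score. The peak at +2.63 kb overlaps an annotated UTR over 24 bp. None of the 3 holds an exact match to a motif searched, the strongest HNF4α peak included, so no letters are in capitals.
Hlf +2.63 kb, promoter: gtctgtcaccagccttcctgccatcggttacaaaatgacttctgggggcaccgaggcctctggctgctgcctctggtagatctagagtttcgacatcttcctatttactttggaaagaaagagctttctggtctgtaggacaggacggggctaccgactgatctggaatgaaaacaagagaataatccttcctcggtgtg
Hlf +8.23 kb, promoter: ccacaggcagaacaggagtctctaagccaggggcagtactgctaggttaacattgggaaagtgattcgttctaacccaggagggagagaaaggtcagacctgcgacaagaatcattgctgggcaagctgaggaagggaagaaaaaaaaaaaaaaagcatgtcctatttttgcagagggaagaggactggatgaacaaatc
Hlf +35.5 kb, triply bound, chr11:90216586-90216785: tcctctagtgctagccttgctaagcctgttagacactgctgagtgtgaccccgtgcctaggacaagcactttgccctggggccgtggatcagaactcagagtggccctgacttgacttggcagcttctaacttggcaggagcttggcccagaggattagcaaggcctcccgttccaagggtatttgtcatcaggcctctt

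*Nfil3*, the D-box repressor, lies on the reverse strand of chromosome 13 from 53062578 to 53076442 and had the densest co-binding of the 7 genes. Its 8 co-bound peaks span 22 kb across the TSS, with 3 upstream at -13.6, -4.87 and -1.21 kb and 5 in introns from +1.29 to +8.24 kb. The 3 triply bound peaks lay at -13.6, -1.21 and +4.66 kb with HNF4α scores of 34.4, 38.2 and 85.8. The peak at +6.05 kb does not count as triply bound, although an HNF4α peak with a score of 77.7 touches its end over 1.5% of its length. HNF4α also had a peak at -0.614 kb, in the *Nfil3* promoter, with a score of 38.2 and no HDAC3 or PROX1 peak. *Nfil3* has 1 annotated protein-coding TSS and is the nearest gene to all 9 HDAC3 and PROX1 peaks of its window. Beyond the window, 3 more co-bound peaks had *Nfil3* as their nearest gene, at -52.3, -80.7 and -87.1 kb, the first and last of them with HNF4α scores of 50.4 and 36.8. With these, 11 co-bound peaks lay within 100 kb of its TSS.

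Some of the intronic peaks of *Nfil3* held matches to the element it binds itself or to the element of RORα and the REV-ERBs. The D-box TTATGTAA was found at +1.29 and +4.66 kb and the RORE TGGGTCA at +6.05 kb. The triply bound peak at +4.66 kb is shown because it has the highest HNF4α score of this gene. It holds a D-box and the HNF4 match CAAAGGTCA on the same strand, in capitals in that order. They lie 35 and 16 bp before the centre of the peak on the forward strand.
Nfil3 +4.66 kb, triply bound, chr13:53071680-53071879: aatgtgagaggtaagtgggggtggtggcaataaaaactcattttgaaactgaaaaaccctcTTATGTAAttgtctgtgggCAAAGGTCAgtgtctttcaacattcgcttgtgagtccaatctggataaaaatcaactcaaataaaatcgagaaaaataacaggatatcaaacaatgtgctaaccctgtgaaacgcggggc

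*Bhlhe40* and *Bhlhe41*, the E-box repressors, both lie on chromosome 6 and had no triply bound peak. *Bhlhe40*, on the forward strand from 108610623 to 108616919, had 3 co-bound peaks at -12.1, -2 and +1.89 kb and 1 PROX1-only peak at -22 kb. HNF4α covered no base of these 4, and its only peak in the window, at +4.13 kb with a score of 30.2, coincided with neither factor. Past the window, PROX1-only peaks with HNF4α lay 12.9 and 16.4 kb beyond the end of *Bhlhe40*, with HNF4α scores of 29.2 and 88.6. *Bhlhe41*, on the reverse strand from 145806763 to 145814078, had 0 co-bound peaks and 1 PROX1-only peak, 7.96 kb from the 5′-most TSS and just past the end of the gene, with an HNF4α score of 39.1. The related repressors therefore differed in the list entries of HDAC3, with 3 peaks at *Bhlhe40* and 0 at *Bhlhe41*. The 3 entries are co-bound, so any of them may lie below the peak limit of 1 of the factors. Empty lines divide the co-bound peaks into unlabelled blocks, and all 3 lie outside the first, which holds 78.3% of all co-bound peaks. Whether HDAC3 bound *Bhlhe41* below the limits of the authors' peak calls was not analysed here.

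The co-bound peak of *Bhlhe40* nearest its TSS and the sole peak of *Bhlhe41* are shown, a choice made after their values were seen. The *Bhlhe40* peak, at chr6:108612416-108612615, covers 101 bp of coding exon and 99 bp of intron and holds a RORE and an E-box, in capitals in that order. The E-box CACGTG is the element that BHLHE40 itself binds. The *Bhlhe41* peak, at chr6:145806019-145806218, holds no match.
Bhlhe40 +1.89 kb, co-bound: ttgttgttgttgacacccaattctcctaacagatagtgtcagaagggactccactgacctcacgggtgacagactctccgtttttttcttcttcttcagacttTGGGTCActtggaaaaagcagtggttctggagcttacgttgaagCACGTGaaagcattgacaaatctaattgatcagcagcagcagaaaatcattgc
Bhlhe41 +7.96 kb, PROX1-only: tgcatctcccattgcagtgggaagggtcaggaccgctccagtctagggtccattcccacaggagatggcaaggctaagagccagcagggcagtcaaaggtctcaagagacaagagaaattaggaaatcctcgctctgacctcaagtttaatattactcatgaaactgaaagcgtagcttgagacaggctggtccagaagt

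*Rora*, the activator at RORE elements, lies on the forward strand of chromosome 9 from 68501593 to 69236053 and is the longest of the 7 genes. Its window held 30 co-bound peaks, 19 of them triply bound, and 9 PROX1-only peaks, and none of these lay in the 50 kb upstream. The first peak was PROX1-only, at +160 kb, and the first co-bound peak lay at +172 kb. HNF4α was listed nearer to the 5′ end, at +17.2 kb, with a score of 25 and neither other factor. All 30 co-bound peaks lie in introns, and none is centred within 1 kb of an annotated TSS. The 19 HNF4α scores ranged from 20.3, the lowest of the list, to 98.5, with a median of 51.4.

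**Figure D3:**
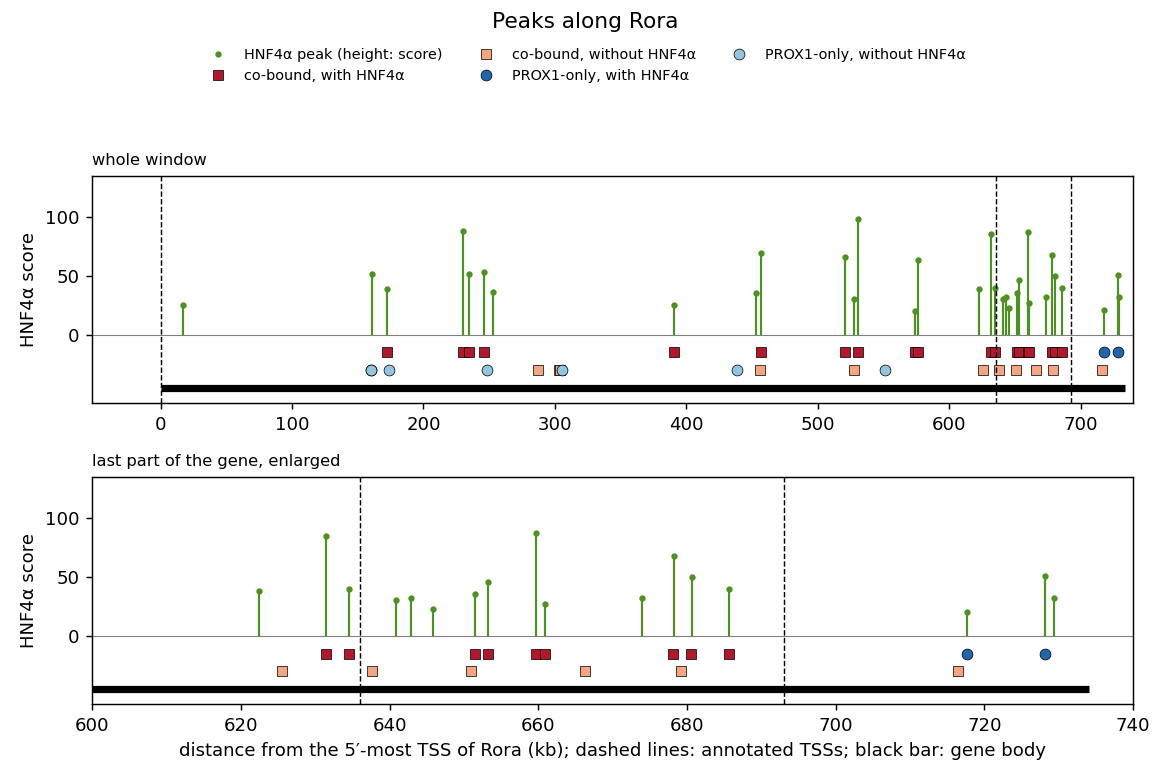
Peaks along *Rora* by distance from its 5′-most TSS in kb (horizontal axis), with the whole window above and the last part enlarged below. Symbols and HNF4α scores (vertical axis) are as in the map of the shorter genes, and dashed lines mark the 3 annotated TSSs. Between the second and the third TSS, 57.6 kb hold 11 co-bound peaks.

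Co-binding along *Rora* was concentrated between its internal TSSs. The annotation gives 3 TSSs, and the later ones lie 636 and 693 kb past the first. Between the first and the second, the 636 kb held 18 co-bound peaks, or 2.83 per 100 kb, 12 of them triply bound, and 7 PROX1-only peaks. Between the second and the third, 57.6 kb held 11 co-bound peaks, or 19.1 per 100 kb, 7 of them triply bound, and 0 PROX1-only peaks. From the third TSS to the end of the window, 43 kb held 1 co-bound and 2 PROX1-only peaks. The longest gap between neighbouring co-bound peaks of *Rora* was 86.1 kb and the shortest 0.263 kb, with a median of 5.87 kb. The PROX1-only peaks were mostly without HNF4α, which was present at 2 of 9, at +718 and +728 kb. The latter lies in an annotated UTR of *Rora*, and the nearest TSS to it is that of *Narg2*.

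The triply bound peak of *Rora* with the highest score, 98.5, lies at chr9:69031801-69032000, 530 kb past the first TSS. Its sequence is shown with a C/EBP match, TTGCCAAA on the reverse strand, in capitals. It holds no exact HNF4 match.
Rora +530 kb: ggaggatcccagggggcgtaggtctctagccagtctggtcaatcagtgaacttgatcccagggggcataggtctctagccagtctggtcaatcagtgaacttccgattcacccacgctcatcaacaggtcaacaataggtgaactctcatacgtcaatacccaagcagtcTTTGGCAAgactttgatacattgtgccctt

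At triply bound peaks the HNF4α scores of these genes resembled those of all such peaks. The median of the 29 was 53.7, with quartiles of 38.6 and 73, against 52.3 with quartiles of 36.3 and 73 over all 12284, and 15 of the 29 lay above the latter median. By gene, the median was 65.8 for the 6 peaks of *Hlf*, 51.4 for the 19 of *Rora* and 38.2 for the 3 of *Nfil3*, and the 1 peak of *Dbp* had 73. The ranges of *Hlf*, *Nfil3* and *Rora* overlap. The highest score was 73 for *Dbp*, 85.8 for *Nfil3*, 98.5 for *Rora* and 121.6 for *Hlf*, and a gene with more peaks has more occasions for a high score.

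**Figure D4:**
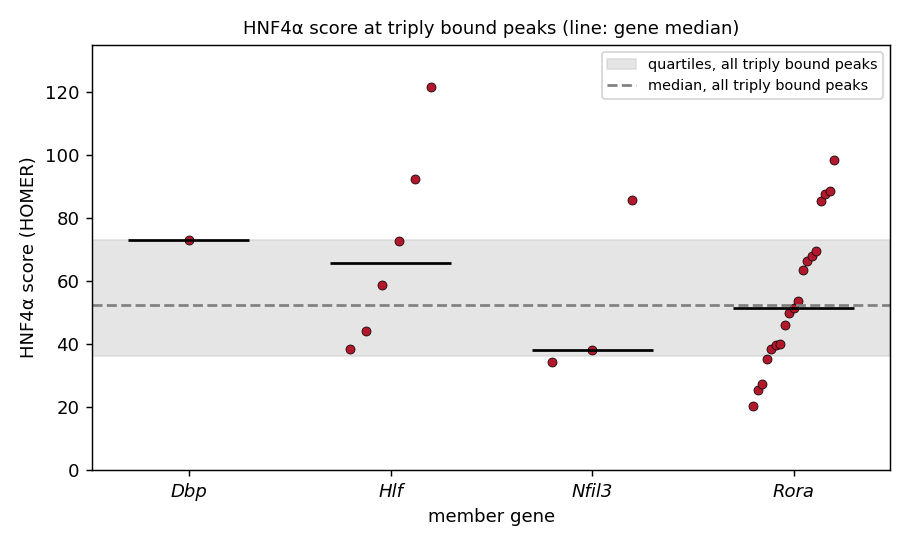
HNF4α score (vertical axis, HOMER score) at each triply bound peak of *Dbp*, *Hlf*, *Nfil3* and *Rora* (points, ordered by score within a gene), with the gene median as a black line and the median and quartiles of all 12284 triply bound peaks as dashed line and grey band. The 4 genes overlap in range, and *Hlf* has the highest score, 121.6.

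HNF4α also had peaks in these windows that lay mostly or wholly off the HDAC3 and PROX1 peaks. Of its 51 peaks, 31 lay on a co-bound and 3 on a PROX1-only peak, by at least 50% of the HNF4α peak, and 17 on neither (33.3%, 22 to 47), against 33.7% of the whole HNF4α list. The 17 had a median score of 32.5, close to the 33.5 of all HNF4α peaks counted on neither factor, with a range of 23.1 to 77.7. The peak with the score of 77.7 touches the co-bound peak at *Nfil3* +6.05 kb over 1.5% of that co-bound peak. *Rora* held 10 of them, *Nfil3* and *Tef* 3 each and *Bhlhe40* 1.

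The co-bound peaks of these genes were largely intronic. Of the 53, 43 were centred in introns (81.1%, 68.6 to 89.4), against 46.9% of all co-bound peaks, 5 between genes (9.43%, against 42.8%), 2 in exons and 3 in promoters. The window contains the whole gene body by its definition and 30 of the peaks are in *Rora*, so this share partly follows from how peaks were assigned. The promoter share of 5.66% (1.94 to 15.4) did not resolve from the 7.91% of all co-bound peaks. All 53 have the member itself as the gene with the nearest TSS, at a median distance of 15.6 kb, against 17.6 kb over all co-bound peaks. Median GC content was 46.5% in both.

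Clock motifs were present at a minority of the co-bound peaks. Exact matches were counted on both strands in 200 bp at the peak centre to the E-box CACGTG, the D-boxes TTATGTAA and TTACGTAA, the ROREs TAGGTCA and TGGGTCA, the HNF4 sequences CAAAGTCCA and CAAAGGTCA, the C/EBP pattern TTGCNNAA, and the DR2 of the REV-ERBs, searched as a pair of GGTCA with any 3 bases between them. Both ROREs and the HNF4 sequence CAAAGGTCA end in GGTCA, as each copy of the DR2 does, so the same bases can count for more than 1 of them. A match is a sequence description and not evidence of binding. Counts in 100 bp at the centre, given below, were made for the 53 peaks only and have no share of all co-bound peaks beside them. Any of these motifs, those of HNF4 and C/EBP included, was found in 21 of the 53 peaks (39.6%, 27.6 to 53.1), against 43.6% of all co-bound peaks.

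The E-box was present at 5 co-bound peaks, at *Hlf* +21.1 and +26.9 kb, *Bhlhe40* +1.89 kb and *Rora* +230 and +576 kb. This is 9.43% (4.1 to 20.3), and the 4.01% of all co-bound peaks lies just under that interval, 1 of 6 motifs compared. In flanking windows 2 kb to either side of all co-bound peaks the share was 2.66%. The E-box was present at 4 of the 29 triply bound peaks and at 1 of the 24 without HNF4α (13.8%, 5.5 to 30.6, and 4.17%, 0.739 to 20.2), intervals that overlap, and over all co-bound peaks the share was 4.01% both with and without HNF4α. The E-boxes at *Hlf* lie 14 and 4 bp from the centre of their peaks, and those at *Rora* at -79 and -81 bp, near the edges, and in 100 bp at the centre 2 co-bound peaks held an E-box. The D-box was present at 3 peaks (5.66%, 1.94 to 15.4), against 2.75% of all co-bound peaks and 0.883% of flanks, 2 of them at *Nfil3* and 1 at *Rora* +528 kb. The RORE was present at 6 peaks (11.3%, 5.29 to 22.6), against 11.5% and 5.2%. They were *Nfil3* +6.05 kb, *Bhlhe40* -2 and +1.89 kb and *Rora* +456, +666 and +686 kb. In 100 bp at the centre, 3 co-bound peaks held a RORE and 3 a D-box. The RORE was present at 1 of the 29 triply bound peaks and at 5 of the 24 co-bound peaks without HNF4α (3.45%, 0.611 to 17.2, and 20.8%, 9.24 to 40.5), intervals that overlap. Over all co-bound peaks the shares with and without HNF4α were 11.4% and 11.7%.

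**Figure D5:**
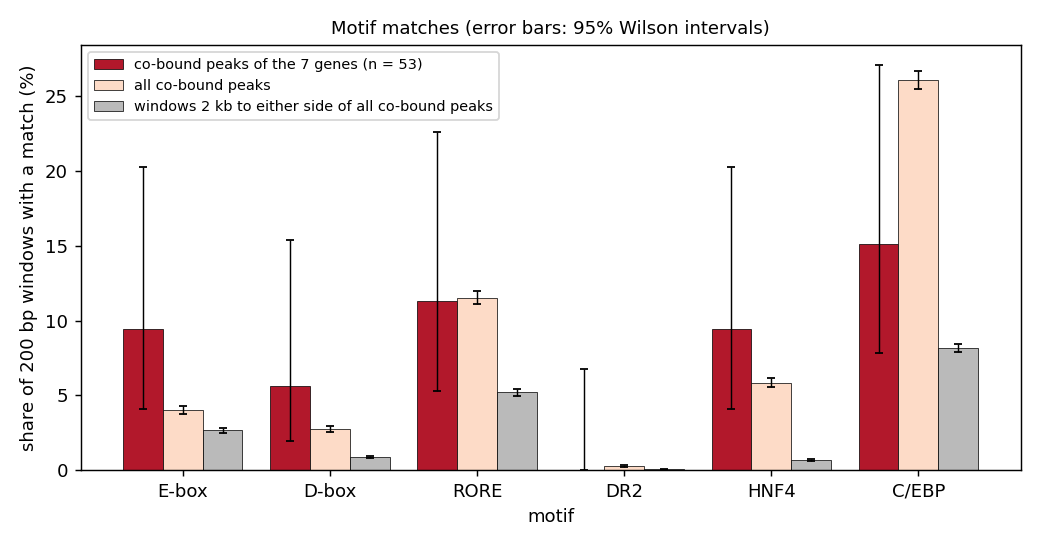
Share of 200 bp windows with at least 1 exact match to each motif (vertical axis, percent) at the co-bound peaks of the 7 genes, at all co-bound peaks and in windows 2 kb to either side of all co-bound peaks, with 95% Wilson intervals as error bars. The E-box share of 9.43% and the C/EBP share of 15.1% are farthest from those of all co-bound peaks, and the intervals of the 53 peaks are wide.

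Of the motifs of liver factors, an HNF4 match was present at 5 (9.43%, 4.1 to 20.3), against 5.86% of all co-bound peaks and 0.696% of flanks. Of the 5, 4 were triply bound, at *Dbp* +3.27, *Hlf* +48.5, *Nfil3* +4.66 and *Rora* +631 kb. Over the whole series, 1008 of the 1175 co-bound peaks with an HNF4 match were likewise triply bound. The C/EBP pattern was present at 8 (15.1%, 7.85 to 27.1), against 26.1% of all co-bound peaks and 8.15% of flanks, an interval that includes the share of all co-bound peaks. In 100 bp at the centre, 3 co-bound peaks held the C/EBP pattern and 5 an HNF4 match. No DR2 was found at the 53, a share with an interval of 0 to 6.76%, against 0.284% of all co-bound peaks.

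Other clock and bZIP gene groups can be set beside these counts, each listed from general knowledge and counted with the same window. Of 12 core clock loop genes, 11 had a co-bound peak, with 39 in all, 41% of them with HNF4α (27.1 to 56.6), 5 HDAC3-only peaks and a median density of 2.02 per 100 kb. *Nr1d1*, which encodes REV-ERBα, had 5 co-bound peaks and 0 with HNF4α. *Per3* with 2 and *Per1* with 1, which encode repressors of the loop, also had 0 with HNF4α, as did *Bhlhe40* and *Tef* among the output genes. *Per2*, *Cry1* and *Cry2*, which encode repressors of the loop as well, had HNF4α at 2 of 9, 1 of 2 and 3 of 4 co-bound peaks. *Rorb* had no peak. Of 6 genes known as targets of PAR bZIP factors in liver, 5 had a co-bound peak, with 32 in all, 62.5% with HNF4α (45.3 to 77.1). *Por*, which encodes the electron donor of cytochrome P450 enzymes, held 16 of them, and *Alas1*, the first enzyme of haem synthesis, 8. Of 6 other liver bZIP genes listed, 5 were found in the annotation by symbol and all 5 had a co-bound peak, with 18 in all, 8 of these at *Cebpa*. The median densities of the PAR bZIP targets and the other bZIP genes were 5.87 and 4.83, against 3.81 for the 7 output genes. The intervals of the HNF4α share of all 4 groups overlap.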

How the data were processed

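The HDAC3, PROX1 and HNF4α lists are ChIP-seq peaks of mouse liver. The authors used Bowtie 0.12.7 for alignment to mm9, removed duplicates, pooled replicates and called peaks with HOMER against IgG, with limits on enrichment and normalized reads. The deposited HDAC3 and PROX1 lists give positions of 200 bp peaks, and the HNF4α list, with peaks of 85 to 168 bp, adds a HOMER score, used here only to rank. No file holds counts, so depth is unknown.

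Peaks were assigned by their centres to protein-coding genes of GENCODE vM1 on NCBIM37, the assembly of mm9, from which sequences were read. Densities were compared with the same window of every protein-coding gene. The design named no test, since lists came from pooled livers. The 7 genes and the comparison lists were chosen with earlier results of these data known. All 7 genes are named. A sequence was printed for the highest HNF4α score at a co-bound peak of a gene, each HDAC3-only peak and each co-bound promoter peak, plus 1 each for *Bhlhe40* and *Bhlhe41*. Empty lines divide the co-bound peaks into unlabelled blocks, of which the first held 81.1% of the 53 and 78.3% of all. *Bhlhe40* had all 3 of its co-bound peaks in the other blocks. Code was tested on simulated data. Tools were samtools 1.23.1 and, in Python 3.11.15, pysam 0.24.0, scipy 1.17.1, pandas 2.3.3 and matplotlib 3.10.9. The alternatives tried concerned the window, the gene assignment, the HNF4α cover and list, merging, *Rora*, the motif search and the promoter.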

Additional observations from a re-analysis of the deposited data

How the results depend on the processing

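Of 39 values recomputed for the groups of peaks, 29 stayed within 1.5 times the count or within the interval of the share and 10 did not. The co-bound count of 53 stayed between 43 and 58 under other windows, nearest-gene assignment and merging, and was 23 without *Rora*. The HDAC3-only count of 1 became 0 with a window from 10 kb upstream, with the nearest gene within 100 kb and without peaks nearest to another gene. The PROX1-only count of 13 was 8 with the nearest gene and 4 without *Rora*. The HNF4α share of 54.7% was 24.5% with 75% of the peak covered and 35.8% with scores above the median, against 32.5% and 40% of all co-bound peaks, and the first limit leaves little room since HNF4α peaks are at most 168 bp wide. With 75% covered, 3 of 7 genes had a triply bound peak, in place of 4. With 1 mismatch allowed, all 53 co-bound peaks held a motif in place of 21, and 14 did in a window of 100 bp. The promoter count of 3 was 9 within 2 kb of a TSS. These alternative motif and promoter counts were not repeated over all co-bound peaks, so they show only how the counts depend on the settings. With the nearest gene within 100 kb, *Rora* had 17 co-bound peaks in place of 30, since peaks farther from any of its TSSs were left out, and with 100 kb upstream *Dbp* had 3 in place of 1. No paired analysis was possible because the lists were made from pooled reads. The limits of the peak calls and the unknown depth bound what can be said of a gene without a peak.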
